A study of Saccharomyces cerevisiae with 12 samples.

Results

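The cytosolic ribosomal protein genes of the yeast Saccharomyces cerevisiae were taken as the genes whose symbol is RPL or RPS plus a number, with or without the letter A or B, and the 5 stalk genes RPP0, RPP1A, RPP1B, RPP2A and RPP2B. The rule uses names only. It found 136 of the 6224 genes named on the arrays: 56 of the small subunit, 75 of the large subunit and 5 of the stalk. Of these, 116 form 58 pairs of an A and a B copy, and 20 were measured without a partner. RPL20A, the partner of RPL20B, was not analysed here.

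The cells were the strain L40, on 12 single-colour Agilent arrays, 4 in each of 3 groups. The scFv-58F group stably expressed an intrabody, an antibody fragment made inside the cell, that binds histone H3 acetylated at lysine K9. The scFv-112A group, the control intrabody, stably expressed a fragment directed against acetylated HIV-1 integrase, and the wild-type group carried none. Plates and precultures, begun from a single colony, lacked leucine for both intrabody groups and were rich YPD medium for the wild type. All groups then grew overnight in YPD at 30 degrees before RNA was taken. Each group lay on a slide of its own and was scanned on its own, so slide, scan and group cannot be told apart. Against wild type, preculture medium cannot be told apart from group either, while both intrabody groups shared it. Nothing in the labels says that replicates were separate cultures, and p-values then measure the spread between these arrays only. Wild type here is the L40 strain itself, and the promoter that drives the intrabodies and the number of clones per group are not given in the sources used here. All 6 a-cell markers were well above background on 12 of 12 arrays, MF(ALPHA)1 on 0 and MF(ALPHA)2 on 3. The other 2 alpha-cell markers, STE3 and SAG1, were above it on 12.

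A cytosolic ribosome joins a small subunit, which reads the messenger RNA, to a large subunit, which forms the peptide bonds and carries the flexible stalk that recruits translation factors. Budding yeast kept many ribosomal protein genes as duplicates after an ancient genome duplication, and the copies of most pairs encode identical or nearly identical proteins. In growing cells these genes are among the most strongly transcribed and are regulated together, through Rap1 or Abf1 at their promoters, the activators Fhl1, Ifh1 and Sfp1, and nutrient signals that act through the TOR and protein kinase A pathways. Histone acetylation at their promoters is part of that regulation. The question the design poses is whether an antibody fragment that binds acetylated H3 inside the cell goes with changed transcript levels, against a control fragment and against no fragment.

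Levels below are log2 values of the processed Cy3 intensity, relative to the 75th percentile of the gene spots of the same array, which is set to 0. A level serves to compare arrays for 1 probe and not to compare genes. The arrays measure each transcript's part of the labelled RNA, so fewer cells that express a gene and less RNA per cell cannot be told apart. Each member had 1 probe in 2 spots, and 134 of the 136 were well above background on all 12 arrays. RPL18B was above it on 4 scFv-58F, 3 scFv-112A and 2 wild-type arrays. RPL7B was above it on 1, 0 and 2 arrays in the same order of groups, and was the only member left untested. The other 135 entered a limma fit over 5827 genes. A change was called at a Benjamini-Hochberg adjusted p below 0.05 over all of them.

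Most members moved together on most arrays. In scFv-58F cells their median level was 0.15, 0.20, 0.19 and 0.46 on replicates 1 to 4. In scFv-112A cells it was 0.00, 0.50, -0.32 and -0.06, and in wild type -0.41, -0.36, -0.20 and -0.10. Every scFv-58F array lay above every wild-type array, while the scFv-112A arrays overlapped both other groups. On scFv-112A replicate 2 all 135 members were above their own group mean, and on replicate 3 of that group 132 were below it. On scFv-58F replicate 4, 128 of 135 were above the group mean. The split was more even on scFv-112A replicate 1, with 74 above and 61 below. The same held for scFv-58F replicate 3, with 54 above and 81 below. The median of all genes tested stayed between -1.51 and -1.41 on the 12 arrays. The median SD of a member over 4 arrays was 0.15 in scFv-58F, 0.32 in scFv-112A and 0.15 in wild type, against 0.07, 0.10 and 0.10 for all genes. The least variable members within a group were RPS7B in scFv-58F (SD 0.02) and in wild type (0.04) and RPL15B in scFv-112A (0.05), and the most variable were RPL9A in scFv-58F (0.31), RPS26B in scFv-112A (0.45) and RPS9A in wild type (0.43). Spots well above background made up 93.4% on scFv-112A replicate 2 and 87.0% on replicate 3, and the part of this in the members' levels was not tested.

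**Figure D1:**
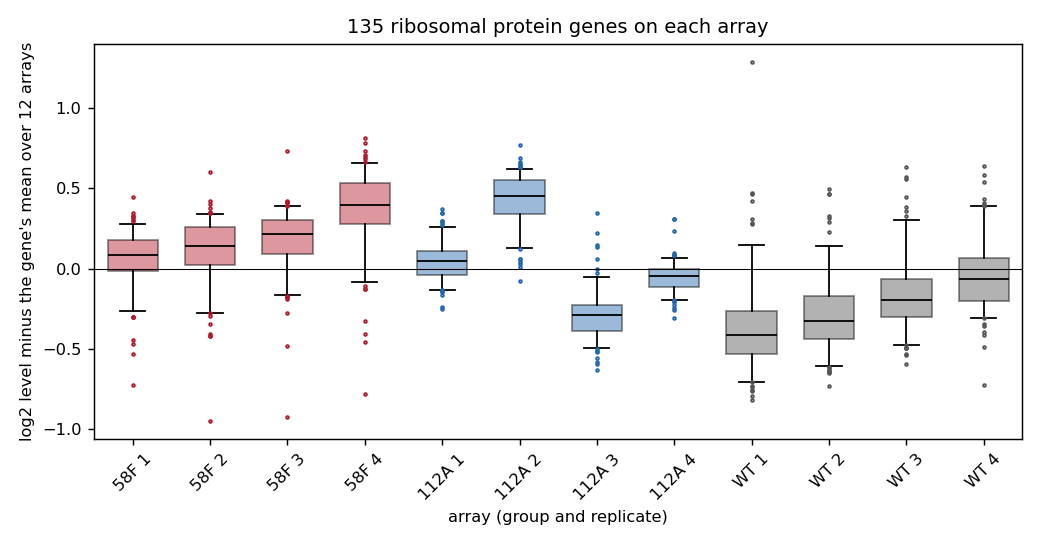
Log2 level of 135 ribosomal protein genes on each array, each gene's mean over the 12 arrays set to 0 (boxes are quartiles, whiskers the 5th and 95th percentiles, points the members beyond). Most members are high on scFv-112A replicate 2 and scFv-58F replicate 4, and low on scFv-112A replicate 3 and wild type replicates 1 and 2.

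Against wild type, ribosomal protein transcripts were higher in scFv-58F cells for most members. Of 135 members, 90 rose and 9 fell (limma, adjusted p below 0.05), with a median log2 change of 0.46, against -0.01 over all genes. The members called in either direction came to 73.3%, where 61.9% of all genes were called. By direction, 66.7% of members rose and 6.67% fell, where 29.7% of all genes were called higher and 32.2% lower. Called rises ran from 1.21-fold to 2.0-fold and called falls from 1.12-fold to 2.83-fold. The small subunit had 34 of 56 higher and 4 lower, the large subunit 52 of 74 higher and 5 lower, and the stalk 4 of 5 higher. For 90 members all 4 scFv-58F arrays lay above all 4 wild-type arrays, where 27.3% of all genes did so, and for 11 members below them, where 30.5% did. Without scFv-58F replicate 4, or without wild type replicate 1, 70 members were called higher.

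**Figure D2:**
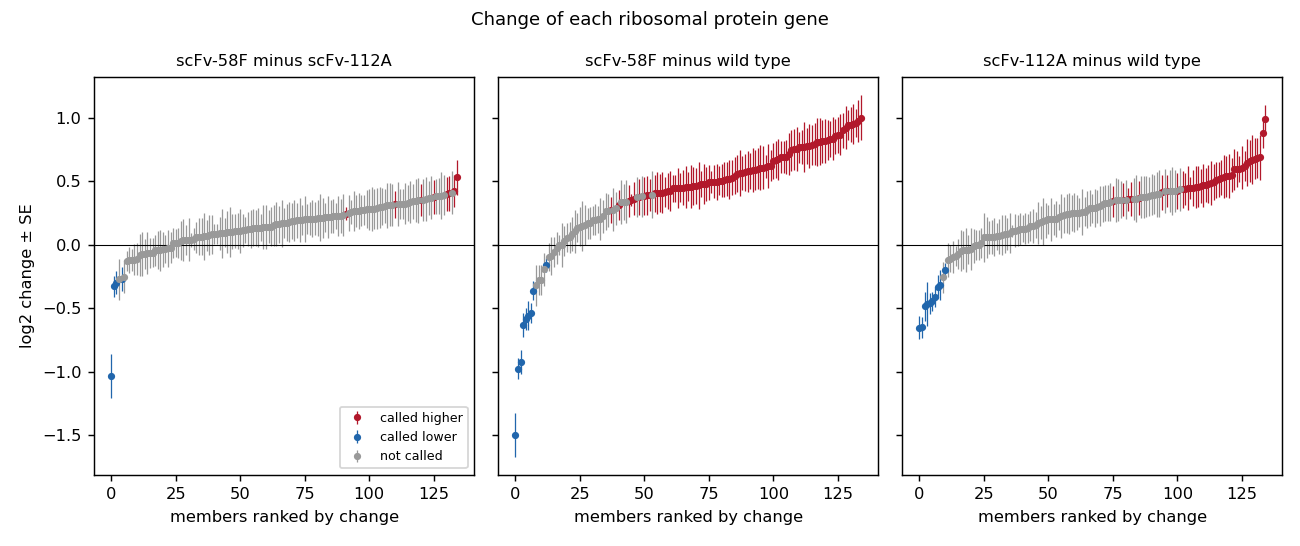
Log2 change of each of 135 ribosomal protein genes in 3 comparisons, ranked within each panel, with bars of 1 SE. Red points were called higher and blue points lower at an adjusted p below 0.05. scFv-58F with wild type holds 90 red and 9 blue points, scFv-58F with scFv-112A 8 and 4, and scFv-112A with wild type 41 and 10.

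Among the largest rises against wild type were those of RPL21A, RPS0A, RPL40B, RPL6A and RPL37B, between 1.00 and 0.94 on the log2 scale. RPS0A encodes a small-subunit protein of the laminin-receptor family, and the others encode large-subunit proteins. RPL40B also encodes ubiquitin, which is cut off the ribosomal protein after translation. Its level was -0.33, -0.32, -0.20 and -0.05 in scFv-58F cells and -0.18, 0.12, -0.40 and -0.30 in scFv-112A cells, against -1.32, -1.26, -1.13 and -1.02 in wild type. Both intrabody groups lay above every wild-type array, and they overlapped each other. The change from wild type was 0.96 ± 0.11 (SE) in scFv-58F (limma, adjusted p = 1.55e-05) and 0.99 ± 0.11 in scFv-112A (adjusted p = 3.66e-05). Its partner RPL40A, which encodes the same fusion, changed by 0.51 ± 0.13 in scFv-58F (limma, adjusted p = 0.00478). In scFv-112A the RPL40A change of 0.30 missed the threshold (limma, adjusted p = 0.0724). RPS31, the third ubiquitin fusion gene, of the small subunit, rose by 0.61 ± 0.18 in scFv-58F (limma, adjusted p = 0.0113).

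RPS0A stood at 0.88, 0.92, 0.96 and 1.26 in scFv-58F cells, against -0.19, -0.07, 0.11 and 0.29 in wild type, with no overlap. RPL6A stood at 0.71, 0.79, 0.86 and 1.12 in scFv-58F cells, against -0.24, -0.15, -0.00 and 0.07 in wild type, again without overlap. In scFv-112A cells the same genes spanned 0.31 to 1.19 and 0.20 to 1.09, which overlapped the scFv-58F arrays and lay above all wild-type arrays. RPL37A and RPL37B, which encode a zinc-finger protein of the large subunit, rose together, by 0.87 ± 0.16 and 0.94 ± 0.12 in scFv-58F (limma, adjusted p = 0.000587 and 3.49e-05).

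Of the 20 genes measured without a partner, 16 were higher in scFv-58F than in wild type, 1 was lower and 3 were not called, and of 115 copies of pairs 74 were higher and 8 lower, where 29.7% of all genes were higher and 32.2% lower. RPL3, whose protein reaches into the peptidyl transferase centre, had 1.98, 1.74, 1.93 and 2.05 in scFv-58F cells, against 1.37, 1.39, 1.53 and 1.59 in wild type. The groups did not overlap, and the change was 0.46 ± 0.11 (limma, adjusted p = 0.0045). RPL28, the gene in which cycloheximide-resistance mutations arise, rose by 0.45 ± 0.15 (adjusted p = 0.0251), and RPL30, whose protein inhibits the splicing of its own transcript, by 0.45 ± 0.12 (limma, adjusted p = 0.0052). The RPL28 call was lost without scFv-58F replicate 4 or without wild type replicate 1 or 2.

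The stalk genes gave the same direction at different sizes. RPP0, the base of the stalk, stood at 3.39, 3.35, 3.46 and 3.64 in scFv-58F cells and at 2.99, 3.58, 2.85 and 3.06 in scFv-112A cells, against 2.41, 2.55, 2.74 and 2.79 in wild type. All wild-type arrays were below all arrays of either intrabody group. RPP0 rose by 0.83 ± 0.14 in scFv-58F (limma, adjusted p = 0.000304) and by 0.49 ± 0.14 in scFv-112A (adjusted p = 0.0129). The acidic proteins that bind RPP0 as dimers come from RPP1A, RPP1B, RPP2A and RPP2B. RPP1A, RPP1B and RPP2A rose by 0.51, 0.67 and 0.34 in scFv-58F (limma, adjusted p = 0.00699, 0.00175 and 0.0351), and the RPP2A call was lost in 6 of the 25 other settings. RPP2B changed by 0.20 ± 0.11 and was not called (limma, adjusted p = 0.116). In scFv-112A, RPP1B rose by 0.51 (limma, adjusted p = 0.0129), and RPP1A, RPP2A and RPP2B were not called.

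The 9 members that fell in scFv-58F against wild type were RPS9A, RPL14A, RPL14B, RPL21B, RPS2, RPL15A, RPL36A, RPS27A and RPS7B. RPS9A encodes a small-subunit protein known to affect the accuracy of decoding. Its level was -4.87, -5.10, -5.08 and -4.93 in scFv-58F cells and -4.04, -3.87, -3.81 and -4.13 in scFv-112A cells, against -2.86, -3.82, -3.58 and -3.71 in wild type. All 4 scFv-58F arrays lay below every other array, and wild type replicate 1 stood high. RPS9A fell by 1.499 on the log2 scale against wild type, or 2.83-fold (SE 0.17, limma, adjusted p = 1.6e-05), and by 1.03 against scFv-112A, or 2.05-fold (limma, adjusted p = 0.00119). Over the 13 other settings its change ran from -1.51 to -1.05 against wild type. Against scFv-112A it ran from -1.05 to -0.72. Without wild type replicate 1 the change against wild type was -1.29. The scFv-112A change against wild type, -0.47 ± 0.17 (limma, adjusted p = 0.0399), was -0.26 without that array, and its call was lost on leaving out 6 of the 12 arrays in turn and in 3 of 13 other settings. Its partner RPS9B was not called in any comparison, with changes of 0.21, 0.09 and -0.12 in scFv-58F with scFv-112A, scFv-58F with wild type and scFv-112A with wild type.

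RPL14A and RPL14B, which encode a large-subunit protein, formed the only pair with both copies called lower, and this held in all 3 comparisons. RPL14A stood at -3.0, -2.96, -3.04 and -2.96 in scFv-58F cells and at -2.55, -2.50, -2.94 and -2.68 in scFv-112A cells, against -2.09, -2.06, -2.0 and -1.92 in wild type. The 3 groups did not overlap, with scFv-58F lowest and wild type highest. RPL14A changed by -0.98 ± 0.08 in scFv-58F against wild type (limma, adjusted p = 1.77e-06), by -0.65 ± 0.08 in scFv-112A against wild type (adjusted p = 9.28e-05) and by -0.33 ± 0.08 in scFv-58F against scFv-112A (adjusted p = 0.011). RPL14B changed by -0.92, -0.65 and -0.27 in the same comparisons (limma, adjusted p = 6.16e-06, 0.000195 and 0.0422), and the last of these calls was lost in 15 of 25 other settings.

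RPS2, a small-subunit protein near the entry of the messenger RNA, stood at 2.55, 2.60, 2.57 and 2.74 in scFv-58F cells, against 3.13, 3.17, 3.23 and 3.26 in wild type. The scFv-112A arrays, at 2.74, 3.01, 2.54 and 2.66, also lay below every wild-type array. RPS2 changed by -0.58 ± 0.09 in scFv-58F (limma, adjusted p = 0.000114) and by -0.46 ± 0.09 in scFv-112A (adjusted p = 0.00113). With quantile scaling these RPS2 changes were -0.28 and -0.26, and the call for scFv-112A was lost (limma, adjusted p = 0.0562). RPS7B, a small-subunit protein gene, fell by 0.16 ± 0.05 in scFv-58F, at an SD of 0.02 among the scFv-58F arrays (limma, adjusted p = 0.022), and this call was lost without wild type replicate 4.

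Between the intrabodies, few ribosomal protein genes were called. scFv-58F had 8 of 135 members higher and 4 lower than scFv-112A, 8.89% in all, where 32% of all genes were called, 14.1% higher and 17.9% lower. The members' median change was 0.17, against -0.02 for all genes, and 111 of 135 changes were positive. Without scFv-112A replicate 2 this median was 0.31, without scFv-112A replicate 3 it was 0.05, and without scFv-58F replicate 4 it was 0.08. The median SE of a member was 0.14 and that of all genes 0.07. Arrays did not overlap for 2 members higher, where 15.1% of all genes did so, and for 2 lower, where 19.2% did. The count of 8 was 62 without scFv-112A replicate 2, the array with all members high, 10 without wild type replicate 1, and 2 to 4 without any other single array. The count of 4 was 2 without scFv-112A replicate 1 or 2, or without scFv-58F replicate 1, 2 or 4. With scFv-112A replicates 2 and 3 both left out, a setting chosen after the data were seen, 24 members were called higher.

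**Figure D3:**
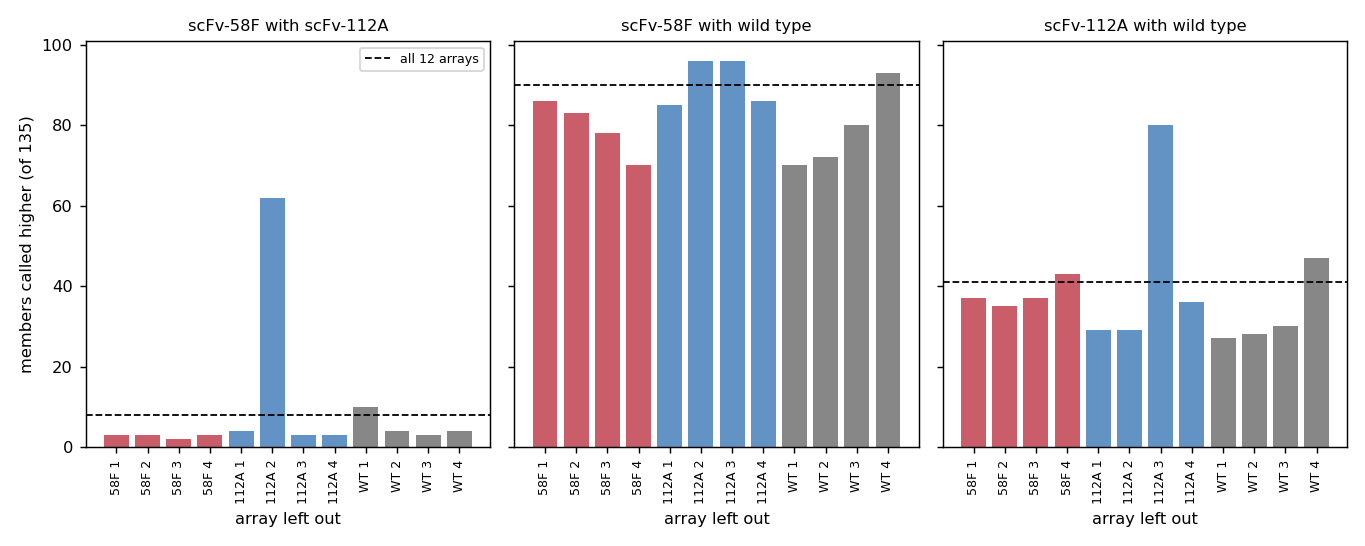
Number of 135 ribosomal protein genes called higher in each comparison when 1 of the 12 arrays is left out (bars, coloured by the group of that array; dashed line, all 12 arrays). The bars run from 2 to 62 for scFv-58F with scFv-112A, from 70 to 96 for scFv-58F with wild type and from 27 to 80 for scFv-112A with wild type.

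Among the 8 members higher in scFv-58F than in scFv-112A were RPL24B, RPL32, RPS4B, RPL36B, RPS14A, RPL7A and RPL15B. RPL24B, whose protein forms a bridge between the subunits, had -0.42, -0.47, -0.37 and -0.41 in scFv-58F cells, against -0.78, -0.50, -1.23 and -0.85 in scFv-112A cells. All scFv-58F arrays were higher, and the change was 0.42 ± 0.12 (limma, adjusted p = 0.0221). This call was lost without scFv-58F replicate 3. RPL15B, one of the genes for an essential large-subunit protein, had -0.92, -0.89, -0.81 and -1.0 in scFv-58F cells and -1.17, -1.08, -1.17 and -1.18 in scFv-112A cells, against -1.19, -1.30, -1.22 and -1.31 in wild type. The 3 groups did not overlap. The change of RPL15B against scFv-112A was 0.25 ± 0.05 (limma, adjusted p = 0.00372), and this call, like those of RPS9A and RPL14A, was kept in all 25 other settings.

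The remaining calls against scFv-112A depended on the setting. RPL32, RPS4B, RPL36B, RPS14A and RPL7A changed by 0.41, 0.40, 0.37, 0.35 and 0.32 (limma, adjusted p between 0.0405 and 0.0499), and each of these calls was lost in at least 13 of 25 other settings. The 4 members lower than in scFv-112A were RPS9A, RPL14A, RPL21B and RPL14B. RPL21B changed by -0.30 ± 0.09 (limma, adjusted p = 0.025) and lost its call in 7 of 25 other settings.

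Members were also called between the control intrabody group and wild type, in all at a lower share than among all genes. In scFv-112A cells 41 members were higher and 10 lower than in wild type (limma, adjusted p below 0.05), with a median change of 0.29, against -0.01 over all genes. Without scFv-112A replicate 2 the median was 0.14. The members called in either direction came to 37.8%, where 48.3% of all genes were called. By direction, 30.4% of members rose and 7.41% fell, where 22.8% of all genes were called higher and 25.5% lower. Arrays did not overlap for 20 members higher and 7 lower, 14.8% and 5.19% of the members, where 17.8% and 21.9% of all genes did so. The scFv-58F and scFv-112A comparisons share the 4 wild-type arrays, so their calls are not independent. The count of 41 was 80 without scFv-112A replicate 3 and 27 without wild type replicate 1.

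The largest rises in scFv-112A were those of RPL40B, RPS0B, RPL21A, RPL6A, RPL37A and RPL8A, from 0.99 to 0.67. RPS0B stood at 0.35, 0.20, 0.19 and 0.58 in scFv-58F cells and at 0.46, 0.73, 0.18 and 0.43 in scFv-112A cells, against -0.62, -0.46, -0.36 and -0.29 in wild type. The intrabody groups overlapped each other and lay above all wild-type arrays, and the change in scFv-112A was 0.88 ± 0.12 (limma, adjusted p = 0.000144). RPL8A, a large-subunit protein gene needed early in assembly, rose by 0.67 ± 0.20 in scFv-112A (limma, adjusted p = 0.0149). The members called lower in scFv-112A were RPL14B, RPL14A, RPL15A, RPS9A, RPS2, RPS27A, RPL36A, RPL21B, RPS22A and RPS7B. RPS22A, named after its value was seen, was the member called lower in scFv-112A (-0.31 ± 0.12, limma, adjusted p = 0.0441) and not in scFv-58F (-0.28 ± 0.12, adjusted p = 0.0592); the 2 intrabody groups differed by 0.04 ± 0.12.

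The duplicated genes allow the copies of a pair to be set against each other on the same array, where a shift that all members share drops out. For 57 pairs with both copies tested, the log2 difference between the A and the B probe was taken on each array and fitted over the 3 groups. Its size within a group compares different probes and was not read, only its change between groups. The median SD of this difference over 4 arrays was 0.07 in scFv-58F, 0.09 in scFv-112A and 0.07 in wild type. Between scFv-58F and wild type, both copies rose in 26 pairs, both fell in 1, one copy rose and the other fell in 4, one copy alone was called in 19 and neither in 7. The 4 pairs with opposite calls were RPL15, RPL21, RPL36 and RPS27. Between scFv-112A and wild type both copies rose in 8 pairs, and RPL21 alone had opposite calls. Between the intrabodies no pair had opposite calls. Of all single genes, 29.7% were called higher and 32.2% lower in scFv-58F against wild type. The shares were 22.8% and 25.5% in scFv-112A against wild type, and 14.1% and 17.9% between the intrabodies. Pairs of other genes were not examined, so whether such counts are particular to these pairs was not tested.

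**Figure D4:**
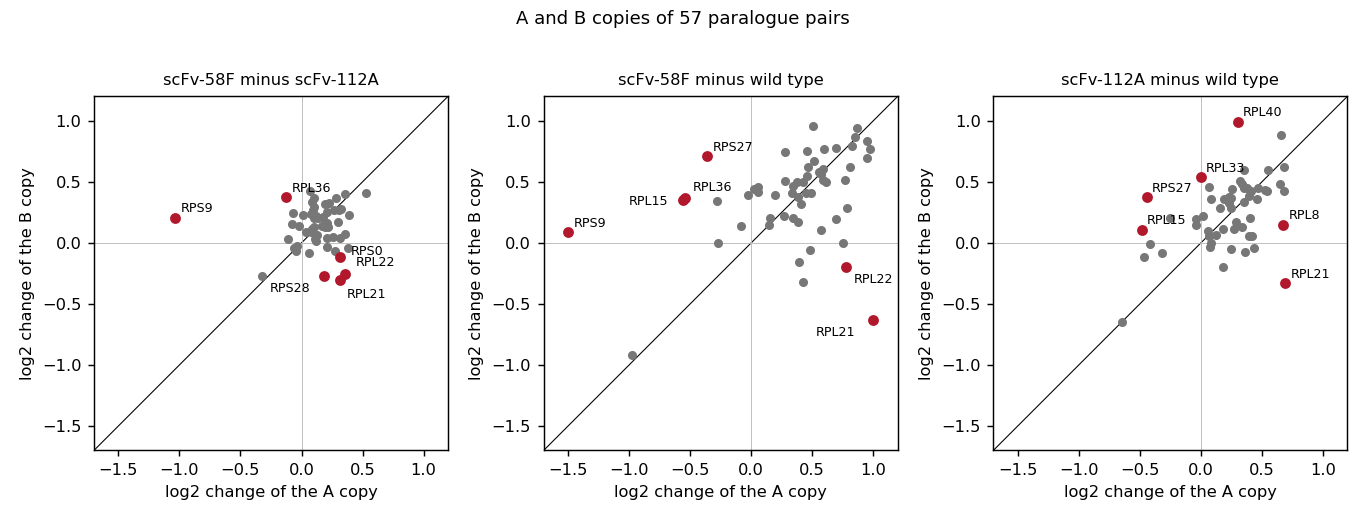
Log2 change of the A copy (horizontal) and of the B copy (vertical) of 57 pairs in 3 comparisons. The diagonal marks equal change, and the 6 pairs with the largest difference between copies are red and named. RPS9 and RPL21 lie farthest from the diagonal in scFv-58F with wild type, at -1.59 and 1.63.

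RPL21, a large-subunit protein, showed the largest such change. RPL21A stood at -2.23, -2.04, -2.09 and -1.66 in scFv-58F cells and at -2.27, -1.88, -2.77 and -2.36 in scFv-112A cells, against -3.26, -3.04, -2.98 and -2.74 in wild type. RPL21B stood at -2.37, -2.32, -1.94 and -2.23 in scFv-58F cells and at -1.87, -1.78, -2.07 and -1.94 in scFv-112A cells, against -1.60, -1.68, -1.55 and -1.51 in wild type. RPL21A was higher and RPL21B lower in scFv-58F than in wild type on every array. RPL21A changed by 1.00 ± 0.18 (limma, adjusted p = 0.000432) and RPL21B by -0.63 ± 0.09 (adjusted p = 9.41e-05). The A minus B difference changed by 1.63 ± 0.16 (95% interval 1.28 to 1.98) against wild type and by 0.61 (0.26 to 0.96) against scFv-112A. In scFv-112A against wild type it changed by 1.02 (0.67 to 1.37).

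RPS9 changed the other way. Its A minus B difference was -3.78, -4.07, -3.96 and -4.09 in scFv-58F cells and -2.79, -3.08, -2.22 and -2.84 in scFv-112A cells, against -1.65, -2.69, -2.51 and -2.70 in wild type. Every scFv-58F array was below all others, and the scFv-112A and wild-type arrays overlapped. The change was -1.59 ± 0.23 (95% interval -2.10 to -1.07) against wild type and -1.24 (-1.76 to -0.72) against scFv-112A. Over the 13 other settings the smallest changes were -1.12 against wild type and -0.95 against scFv-112A. In scFv-112A with wild type the change was -0.35 (-0.86 to 0.17).

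The small-subunit zinc-finger protein of the RPS27 pair had its copies move apart in both intrabody groups. RPS27A stood at -2.60, -2.68, -2.53 and -2.58 in scFv-58F cells and at -2.64, -2.58, -2.81 and -2.70 in scFv-112A cells, against -2.04, -2.40, -2.18 and -2.33 in wild type. RPS27B stood at 0.78, 0.91, 0.93 and 1.12 in scFv-58F cells and at 0.72, 1.06, 0.09 and 0.52 in scFv-112A cells, against 0.02, 0.20, 0.31 and 0.37 in wild type. RPS27A was lower on all intrabody arrays than on any wild-type array, and RPS27B higher on all scFv-58F arrays. RPS27A changed by -0.36 ± 0.08 in scFv-58F (limma, adjusted p = 0.00152) and RPS27B by 0.71 ± 0.17 (adjusted p = 0.00277). The RPS27B change was 0.47 with the normexp background correction, and 4 of its 24 spots were left out as outliers. The A minus B difference changed by -1.07 ± 0.16 in scFv-58F and by -0.82 ± 0.16 in scFv-112A, both against wild type.

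RPL15 and RPL36, both of the large subunit, had the A copy lower and the B copy higher in scFv-58F than in wild type. RPL15A stood at 2.28, 2.26, 2.36 and 2.42 in scFv-58F cells and at 2.29, 2.60, 2.31 and 2.41 in scFv-112A cells, against 2.48, 3.00, 2.99 and 3.08 in wild type. Wild type replicate 1 was the low one of its group, and the scFv-58F arrays were still below it. RPL15A changed by -0.56 ± 0.12 and RPL15B by 0.35 ± 0.05 (limma, adjusted p = 0.00138 and 8.7e-05), and with quantile scaling RPL15A changed by -0.32. RPL36A stood at -1.97, -1.97, -1.84 and -1.80 in scFv-58F cells, against -1.40, -1.38, -1.37 and -1.28 in wild type. RPL36B stood at 0.25, 0.30, 0.39 and 0.52 in scFv-58F cells, against -0.15, -0.04, 0.05 and 0.15 in wild type. Both copies were without overlap between these groups, RPL36A at -0.54 ± 0.08 and RPL36B at 0.36 ± 0.13 (limma, adjusted p = 0.000118 and 0.0321). The RPL36B call was lost without scFv-58F replicate 3 or 4, or without wild type replicate 1 or 2.

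**Figure D5:**
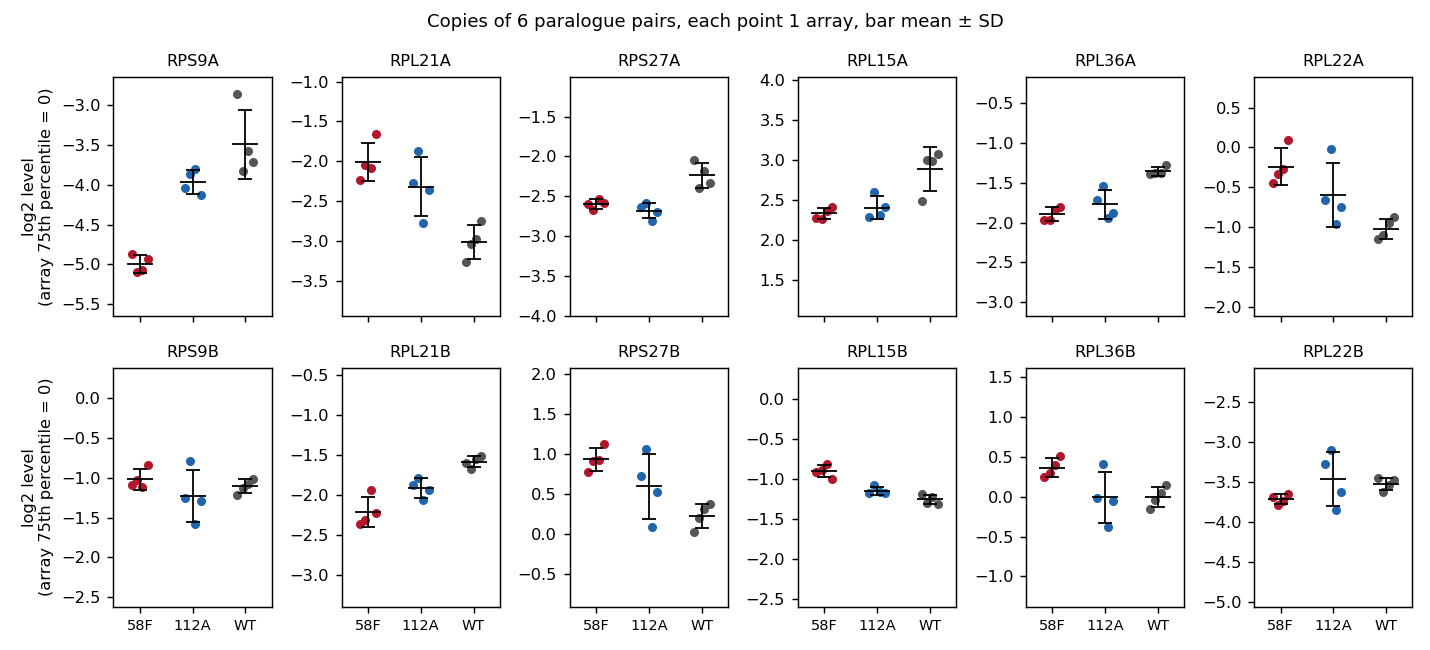
Log2 level of the A copy (top) and the B copy (bottom) of 6 pairs, each point 1 array, with the mean and SD of the 4 arrays of a group (58F, scFv-58F; 112A, scFv-112A; WT, wild type). Every vertical axis spans the same range around the gene's own mean. RPS9A is lowest in scFv-58F while RPS9B overlaps among the groups, and the copies of RPL21, RPS27, RPL15 and RPL36 differ from wild type in opposite directions in scFv-58F.

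In RPL22, RPL31 and RPS28 the A copy rose in scFv-58F against wild type while the B copy was not called. RPL22 encodes a non-essential large-subunit protein that acts on the splicing of the RPL22B transcript, RPL31 one near the exit of the peptide tunnel, and RPS28 a small-subunit protein at the messenger RNA exit. RPL22A rose by 0.78 ± 0.17 (limma, adjusted p = 0.00218), and RPL22B changed by -0.19 ± 0.13. RPL31A rose by 0.75 ± 0.17 (limma, adjusted p = 0.00243), and RPL31B changed by -0.00 ± 0.17. RPS28A rose by 0.42 ± 0.16 (limma, adjusted p = 0.0318), with 7 of its 24 spots left out as outliers, and RPS28B changed by -0.32 ± 0.16. The A minus B differences changed by 0.97 (95% interval 0.72 to 1.23), 0.75 (0.65 to 0.86) and 0.74 (0.60 to 0.89). The RPS28A call was lost in 6 of 25 other settings.

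RPS14, a small-subunit protein whose excess represses the RPS14B transcript, rose through its A copy, by 0.69 ± 0.12 for RPS14A in scFv-58F against wild type (limma, adjusted p = 0.000483). RPS14B changed by 0.20 ± 0.12 and was not called (limma, adjusted p = 0.178).

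The RPL40 pair separated all 3 groups. Its A minus B difference was 1.51, 1.57, 1.51 and 1.53 in scFv-58F cells and 1.30, 1.38, 1.21 and 1.27 in scFv-112A cells, against 1.98, 1.97, 1.96 and 2.01 in wild type. The 3 groups did not overlap, and scFv-112A was lowest. The change against wild type was -0.69 ± 0.04 in scFv-112A and -0.45 ± 0.04 in scFv-58F. The difference of RPL33, of the large subunit, changed by -0.54 ± 0.06 in scFv-112A against wild type. RPL33B rose there by 0.54 ± 0.17 (limma, adjusted p = 0.0202), a call lost without scFv-112A replicate 1 or 2 or without wild type replicate 1, and RPL33A, at -0.00 ± 0.12, was not called. In the same comparison the difference of RPL8 changed by 0.52 ± 0.11 and that of RPS18 by -0.46 ± 0.07, and in scFv-58F against wild type by 0.26 ± 0.11 and -0.62 ± 0.07. Between the intrabodies, the differences of RPS0, RPL43 and RPL24 changed by 0.43 ± 0.08, 0.43 ± 0.08 and -0.36 ± 0.10. Across the 57 pairs, the 95% interval of the change left out 0 in 25 pairs for scFv-58F with scFv-112A, 35 for scFv-58F with wild type and 38 for scFv-112A with wild type. These intervals are not adjusted over pairs, and no such share was taken over pairs of other genes. Copies of a pair can be nearly identical in sequence, so a probe may read both; how far each probe does was not tested.

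Regulators of ribosomal protein genes did not move in 1 direction. Of 13 in the list, 2 rose and 4 fell in scFv-58F against wild type (median change -0.06), 2 rose and 2 fell in scFv-112A, and 1 rose and 2 fell between the intrabodies. Among all genes, 29.7% were higher and 32.2% lower in scFv-58F against wild type, 22.8% and 25.5% in scFv-112A, and 14.1% and 17.9% between the intrabodies. RAP1, which binds most of these promoters, changed by -0.35 ± 0.07 in scFv-58F and by -0.48 ± 0.07 in scFv-112A against wild type (limma, adjusted p = 0.000885 and 0.000218). TBF1, a factor bound at a few ribosomal protein promoters, changed by -0.62 and -0.52 (limma, adjusted p = 2.52e-06 and 2.86e-05). ABF1, which takes the place of Rap1 at some of the promoters, rose by 0.32 ± 0.05 in scFv-58F against wild type and by 0.22 ± 0.05 against scFv-112A (limma, adjusted p = 0.00014 and 0.00607). FHL1, IFH1 and SFP1, looked up because they activate these genes, were not called in any comparison. MRS6, which binds Sfp1, changed by -0.34 in scFv-58F against wild type (limma, adjusted p = 0.000576). UTP22, a pre-rRNA processing factor found in a complex with Ifh1, changed by -0.45 ± 0.11 in scFv-58F against wild type (limma, adjusted p = 0.00489).

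The chaperones that escort single ribosomal proteins to assembly were called in both directions, 3 of 11 higher and 6 lower in scFv-58F against wild type, 4 higher and 1 lower in scFv-112A, and 0 higher and 4 lower between the intrabodies. Over all genes these shares were 29.7% and 32.2%, then 22.8% and 25.5%, then 14.1% and 17.9%. SYO1, which carries the proteins of RPL5 and RPL11 into the nucleus, fell by 1.09 on the log2 scale (SE 0.17, limma, adjusted p = 0.000145) in scFv-58F against wild type. RPL5 itself changed by -0.10 ± 0.11 and was not called, and RPL11A and RPL11B rose by 0.38 ± 0.14 and 0.50 ± 0.13 (limma, adjusted p = 0.0342 and 0.00546). TSR2, the chaperone of the RPS26 protein, changed by -0.63 ± 0.11 (limma, adjusted p = 0.000301), beside RPS26A and RPS26B at 0.14 and 0.15, neither called. SQT1, the chaperone of the RPL10 protein, changed by -0.63 ± 0.17 (limma, adjusted p = 0.00795), beside a rise of RPL10 by 0.48 ± 0.10 (adjusted p = 0.00158). PUF6, which with LOC1 handles the RPL43 protein, changed by -0.59 ± 0.19 (limma, adjusted p = 0.0177) and LOC1 by 0.38 ± 0.05 (adjusted p = 7.73e-05). Beside them, RPL43A changed by 0.45 and RPL43B by 0.41 (limma, adjusted p = 0.0138 and 0.045). The RPL43B call was lost in 6 of 13 other settings and on leaving out 9 of the 12 arrays in turn. LOC1 and the client genes RPL5, RPL10, RPL11A, RPL11B, RPS26A and RPS26B were looked up after these values were seen.

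Of 10 elongation factor genes, 4 rose and 4 fell in scFv-58F against wild type, 4 rose and 1 fell in scFv-112A, and 1 rose and 2 fell between the intrabodies. Of all genes, 29.7% rose and 32.2% fell in the first of these comparisons, 22.8% and 25.5% in the second, and 14.1% and 17.9% in the last. EFT1 and EFT2, the copies for elongation factor eEF-2, rose by 0.48 ± 0.11 and 0.51 ± 0.11 in scFv-58F and by 0.55 and 0.57 in scFv-112A against wild type (limma, adjusted p between 0.00177 and 0.00242). EFB1, for the nucleotide exchange factor of elongation factor eEF-1, changed by -0.53 ± 0.05 in scFv-58F (limma, adjusted p = 5.46e-06). ANB1, the hypoxic copy of the gene for the factor eIF5A, was above background on 4 scFv-58F, 2 scFv-112A and 1 wild-type arrays, and no fold is given for it. ANB1 passed the filter of at least 4 arrays only through scFv-58F, the group where it is highest, so its calls are no support for a rise. It is still among the elongation factor genes counted as higher in each of the 3 comparisons. Between the intrabodies it is the only gene so counted. The aerobic copy HYP2 changed in scFv-58F by -0.36 ± 0.05 against wild type (limma, adjusted p = 0.000156). Against scFv-112A its change was -0.33 ± 0.05 (limma, adjusted p = 0.00132).

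Of 14 genes for proteins bound to the ribosome, 8 rose and 0 fell in scFv-58F against wild type, 11 rose and 1 fell in scFv-112A, and 0 rose and 1 fell between the intrabodies. The shares of all genes called higher and lower were the 29.7% and 32.2%, 22.8% and 25.5%, and 14.1% and 17.9% given above for these comparisons. ZUO1 and SSZ1, the chaperone pair at the peptide exit, rose by 0.79 ± 0.08 and 0.72 ± 0.07 in scFv-58F (limma, adjusted p = 9.8e-06 and 6.48e-06) and by 0.86 and 0.64 in scFv-112A. STM1, a clamp of idle ribosomes, rose by 0.60 ± 0.11 in scFv-58F (limma, adjusted p = 0.000719), and EGD2, of the nascent-chain complex, by 0.36 ± 0.08 (adjusted p = 0.00136). The medians of this list were 0.34 and 0.35 against wild type, beside 0.46 and 0.29 for the ribosomal protein genes.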

How the data were processed

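Each of 12 Agilent arrays held 1 sample of L40 yeast RNA in 1 colour, 4 arrays a group. Per the labels' protocols, RNA below an integrity number of 8.0 was discarded and polyadenylated RNA was labelled with Cy3. Per the file headers, the deposited intensities come from Agilent Feature Extraction 10.7.3.1; the processed signal was used. A second file from the authors holds log2 values of 5297 probes, which follow the log2 processed signal at an offset per array (r from 0.9994 up), and which served as an alternative. Its scaling is not given in the sources used here.

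Here, the 75th percentile of log2 processed signal over the gene spots of each array was subtracted, outlier spots were left out, the 2 spots of a probe were averaged and the brightest probe stood for a gene. Outlier spots were at first left out of the percentile too; they were put back after the data were seen, because most of them were bright, and the earlier version is kept as an alternative. Genes well above background on at least 4 of 12 arrays, 5827 in all, went into 1 limma fit over all 12 arrays (version 3.58.1, R 4.3.3), with Benjamini-Hochberg adjustment. Symbols came from assembly R64 for 5644 of 6224 genes, and no coordinates or sequences were used. The percentile of processed signal ran from 4739 to 9362, wild type replicate 1 being the brightest, and the number of arrays limits the precision. The mean spot signal was not used here, so the normexp alternative used the median signal and its background with an offset of 50. The labels do not say that a replicate number marks anything shared. Only 5 of 12 same-numbered array pairs had a correlation of deviations over 0.1, so they were not taken as pairs.

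The members and lists were chosen with earlier results of these data known. Named members were the 6 largest called rises and falls per comparison, the 8 pairs whose copies differed most in change, members called alike in scFv-58F against both other groups, the least and most variable member of a group, a fixed set of well-studied members, and up to 4 called genes per list. Further names are marked in the text. The values of 1 member that the rule names are not reported here, and it stays in the counts. Calculations were tested on simulated data.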

Additional observations from a re-analysis of the deposited data

Results flagged for a closer look

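Single arrays stood apart from the other 3 of their group in 8 of 210 sets of 4 values examined, where chance gives about 1 in 20. In scFv-58F, replicate 4 was high in 5 of them. The median level of the members there was 0.46, against 0.15 to 0.20 on the other arrays of the group. RPL30 stood at 2.28 on that array, against 2.04 to 2.07, and RPL8A at -1.0, against -1.64 to -1.54. RPS14B stood at -1.94, against -2.30 to -2.25, and RPS4B at 0.45, against 0.14 to 0.19. In scFv-112A, RPL15B on replicate 2 was high at -1.08, against -1.18 to -1.17. In wild type, RPL15A on replicate 1 was low at 2.48, against 2.99 to 3.08, and RPL9A on replicate 2 was low at -0.59, against -0.41 to -0.40.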

How the results depend on the processing

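With 4 arrays a group and 1 slide a group, no setting separates slide from group. Of 79 called values of single genes, 56 kept direction and call under all 25 other settings, 13 that change a processing choice and 12 that leave out an array, and none changed sign. All 24 pair values followed kept their sign. The 8 members higher in scFv-58F than in scFv-112A (4 lower) were 15 with quantile scaling (3 lower), 5 with the array median as scale (4 lower), 10 with cyclic loess (3 lower), 3 without a filter, 14 with a filter on all 12 arrays, 3 with only both groups in the fit, and 24 with scFv-112A replicates 2 and 3 left out, a setting chosen after the data were seen, as was the percentile without outlier spots (11). Leaving out 1 array gave 2 to 62 higher and 2 to 5 lower between the intrabodies. For scFv-58F with wild type it gave 70 to 96 higher and 8 to 12 lower, and for scFv-112A with wild type 27 to 80 higher and 8 to 11 lower. The members' medians then ran from 0.05 to 0.31, 0.40 to 0.52 and 0.14 to 0.39. With the replicate number as a block, 7 higher and 2 lower were called between the intrabodies. The counts were 86 and 9 in scFv-58F with wild type, and 38 and 10 in scFv-112A with wild type. In 2 of 12 same-numbered array pairs, each array correlated best with the other among the arrays of the other's group. The authors' table gave 11 higher and 4 lower, 92 and 9, and 59 and 10. The cause of these differences was not tested.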
